A study of Mus musculus with 20 samples.

Results

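The macroH2A genes H2afy and H2afy2 were selected by name, and their expression, their splice junctions and the mutually exclusive exons of H2afy were followed across 4 groups of mouse bone marrow. They are 2 of the 37620 genes counted. Of the 554616 splice junctions in the data, 87 belonged to them, 77 in H2afy and 10 in H2afy2. Of 55041 splicing events built from the junctions, 10 lay in these genes, and all 10 were in H2afy. On the mm9 build both genes lie on the minus strand, H2afy (ENSMUSG00000015937, 8 annotated transcripts) at chr13:56174980-56237722 and H2afy2 (ENSMUSG00000020086, 3 annotated transcripts) at chr10:61201391-61246895.

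MacroH2A proteins are histone H2A variants that carry a large macro domain behind the histone fold. They replace H2A in part of the nucleosomes, gather on repressed chromatin and on the inactive X chromosome, and are known for stabilising differentiated states, in blood as in other tissues. The macro domain differs between the products of H2afy: a pair of mutually exclusive exons gives macroH2A1.1, whose macro domain binds ADP-ribose, or macroH2A1.2, whose macro domain does not. H2afy2 encodes macroH2A2, which does not bind ADP-ribose either.

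The exons that carry this choice are shown first, since the results turn on them. All sequences were read from mm9, on the minus strand, 5′ to 3′. In the acceptor windows the capitals mark the base before the AG and the AG itself, and the bases after them open the exon.
H2afy 91-bp exon (macroH2A1.1), acceptor, chr13:56189701-56189723: catctgtttacctgttaTAGttg
H2afy 100-bp exon (macroH2A1.2), acceptor, chr13:56191216-56191238: cctcatgcttctcttttCAGctg
H2afy2 exon 6, acceptor, chr10:61210517-61210539: atcttttcttcctaacgCAGcta
The 91-bp exon has a T before its AG, and the 100-bp exon and its counterpart in H2afy2 have a C. Of the 20 intron bases in each window, 13 were pyrimidines for the 91-bp exon, 16 for the 100-bp exon and 14 for H2afy2 exon 6. As background, U2AF1 is the splicing factor that reads the AG of a 3′ splice site, and the S34F change is known to alter its preference for the base just before the AG.

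The exon bodies are printed in full because the alternative products differ in them. Both H2afy exons are internal coding exons. The 100-bp exon is exon 6 of the transcript that carries it, and in the other transcript the 91-bp exon takes that place.
H2afy 91-bp exon, chr13:56189613-56189703: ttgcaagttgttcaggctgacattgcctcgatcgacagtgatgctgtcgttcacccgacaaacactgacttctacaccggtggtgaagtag
H2afy 100-bp exon, chr13:56191119-56191218: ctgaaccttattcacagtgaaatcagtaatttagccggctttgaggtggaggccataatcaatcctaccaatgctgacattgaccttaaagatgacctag
H2afy2 exon 6, chr10:61210420-61210519: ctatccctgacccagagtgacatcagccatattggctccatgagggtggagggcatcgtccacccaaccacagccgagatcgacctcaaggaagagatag
After alignment the 100-bp exon was identical to H2afy2 exon 6 at 67.6% of columns and to the 91-bp exon at 54.6%. The 91-bp exon was identical to H2afy2 exon 6 at 57.8%. Since 91 and 100 differ by a multiple of 3, the reading frame was kept, and the coding sequence was 1107 bases with the 91-bp exon and 1116 with the 100-bp exon. Along the gene, an intron of 6266 bases separates exon 5 from the 100-bp exon, one of 1415 bases separates the pair, and one of 3966 bases leads from the 91-bp exon to exon 7. The donor sites were alike, with the intron's GT in capitals.
H2afy 91-bp exon, donor, chr13:56189607-56189615: tagGTaatg
H2afy 100-bp exon, donor, chr13:56191113-56191121: tagGTaatt

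Total RNA was sequenced from whole bone marrow of 20 mice in 4 groups of 5. Mice with the U2AF1(WT) transgene and mice with the U2AF1(S34F) transgene each received either vehicle or sudemycin D6, and mice given the latter are called drug-treated. All mice were lethally irradiated wild-type recipients of marrow from rtTA transgenic donors, in which doxycycline switches on a U2AF1(WT) or U2AF1(S34F) transgene while the mouse's own U2af1 is kept. Donor marrow was pooled from 2 to 3 mice aged 8 to 12 weeks, and recipients were 6 to 12 weeks old when transplanted. A recipient is a replicate of its group rather than a separate donor. All 4 groups, controls included, were given doxycycline chow at 625 ppm for 7 days, beginning at least 6 weeks after transplantation. Sudemycin D6, which binds the SF3B1 complex of the spliceosome, was infused at 50 mg per kg per day over 4 h on each of the last 5 days, beginning 2 days after doxycycline, and control mice received the cyclodextrin vehicle. Marrow was taken on the day after the last infusion. Vehicle-treated U2AF1(WT) mice were also set against drug-treated U2AF1(S34F) mice, called here the groups that differ in both. The comparisons ask what the mutant does to these genes, what the drug does, and whether the drug acts differently in mutant marrow.

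Between 41145892 and 62138138 reads per mouse fell on genes, and between 34384214 and 64813149 on splice junctions. Xist had 39145 to 78640 counts in every U2AF1(WT) mouse and 1 to 8 in every U2AF1(S34F) mouse, and Eif2s3y, on the Y chromosome, had 0 and 4073 to 6120. The transgene and the sex of the marrow therefore cannot be told apart in any comparison of genotypes here. The U2af1 gene was at 36.1 ± 1.38 CPM (SD, n = 5) under vehicle with the U2AF1(WT) transgene and at 51.0 ± 3.32 with U2AF1(S34F). Gene counts do not tell the transgene's allele. Neutrophil markers had the highest summed level of the cell type marker lists used here. It was 66005 to 74148 CPM in vehicle-treated U2AF1(WT) mice, 63312 to 92104 with the drug, 91716 to 127370 in vehicle-treated U2AF1(S34F) mice and 76667 to 114678 in those with the drug. Such a sum counts reads and does not measure the share of cells.

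Inclusion of the 91-bp exon, the macroH2A1.1 exon, fell in U2AF1(S34F) marrow. Ψ is used here for the share of reads on the 4 junctions of the pair that belong to the 91-bp exon. In the vehicle-treated U2AF1(WT) mice Ψ was 9.08, 8.77, 10.4, 14.1 and 8.11%. In the vehicle-treated U2AF1(S34F) mice it was 4.13, 4.09, 3.58, 2.94 and 3.39%. No mutant mouse reached the lowest U2AF1(WT) mouse. The mean went from 10.1% ± 2.39 to 3.63% ± 0.50 (SD, n = 5), a change of -6.47 percentage points with a 95% confidence interval of -8.88 to -4.07 from limma. With edgeR's quasi-likelihood test and Benjamini-Hochberg adjustment over the 42857 events tested, the adjusted p was 2.14e-07. An exact two-sided permutation test over the mice gave p = 0.00794, the smallest that 5 against 5 allows, or 0.0132 adjusted over the 5 comparisons of 2 groups. Of the 10 H2afy events tested, 2 were called at an FDR under 10% and a change of over 1 point, where 2.41% of all events tested and 7.55% of 212 pairs of mutually exclusive exons were called. By the size of its change H2afy ranked 77 of the 212 pairs.

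The lower inclusion of the 91-bp exon was also seen between genotypes under the drug. Ψ was 8.52, 6.35, 6.70, 9.08 and 7.94% in the drug-treated U2AF1(WT) mice. It was 2.69, 3.51, 2.82, 3.90 and 1.91% in the drug-treated U2AF1(S34F) mice. Again the groups stood apart. The means were 7.72% ± 1.17 and 2.97% ± 0.77 (SD, n = 5), and the change was -4.75 points (95% confidence interval -6.14 to -3.37). The edgeR adjusted p was 6.35e-13 and the exact permutation p was 0.00794. Of 7 H2afy events tested, 1 was called, where 2.43% of all events and 9.62% of the pairs of mutually exclusive exons were.

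Sudemycin D6 on its own left the share of the pair without a call. In U2AF1(WT) marrow Ψ differed by -2.38 points between drug and vehicle (95% confidence interval -5.0 to 0.23, edgeR adjusted p = 0.491, exact permutation p = 0.0635). The groups overlapped, because the 2 highest drug-treated mice lay within the range of the vehicle group. None of 9 H2afy events tested was called by edgeR, and 2 had an unadjusted p under 0.05, where 0.760% of all events were, and 3.86% of the pairs of mutually exclusive exons. This comparison depended on single mice. It passed the threshold when vehicle-treated replicate 1 was left out (-2.64 points, edgeR adjusted p = 0.0713), and likewise without vehicle-treated replicate 2 (-2.72, 0.0444) or 5 (-2.88, 0.0391), and without drug-treated replicate 6 (-2.58, 0.0581) or 10 (-2.73, 0.0374). Without vehicle-treated replicate 4, the mouse with the highest Ψ, the difference was -1.39 points (edgeR adjusted p = 0.501).

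In U2AF1(S34F) marrow the drug's difference was -0.66 points (95% confidence interval -1.58 to 0.25, edgeR adjusted p = 0.368, exact permutation p = 0.135), and the groups overlapped. None of 7 H2afy events tested was called by edgeR, and 1, the pair, had an unadjusted p under 0.05, where 1.43% of all events and 6.13% of the pairs were called. The difference between the drug's effects in the 2 genotypes was 1.72 points (95% confidence interval -0.89 to 4.34, edgeR adjusted p = 1). From vehicle-treated U2AF1(WT) to drug-treated U2AF1(S34F) mice the change was -7.14 points (95% confidence interval -9.60 to -4.67, edgeR adjusted p = 2.74e-59, exact permutation p = 0.00794). Of 9 H2afy events tested, 3 were called in this comparison, where 5.09% of all events and 16.0% of the pairs were. The very small adjusted p comes from a variance shared across all events. With the event's own variance the unadjusted p was 8.66e-05 here, 6.49e-05 between genotypes under vehicle and 8.09e-05 between genotypes under the drug. The tests differed in how they modelled the spread between mice. With an estimated negative binomial dispersion in place of 0, edgeR called no event of any gene in any comparison, and the pair, at the same changes of -6.47, -4.75 and -7.14 points, had an adjusted p of 0.528 under vehicle, 0.527 under the drug and 0.499 between the groups that differ in both. By limma on Ψ the pair was called in all 3 (adjusted p = 0.0714, 0.0288 and 0.0269).

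**Figure D1:**
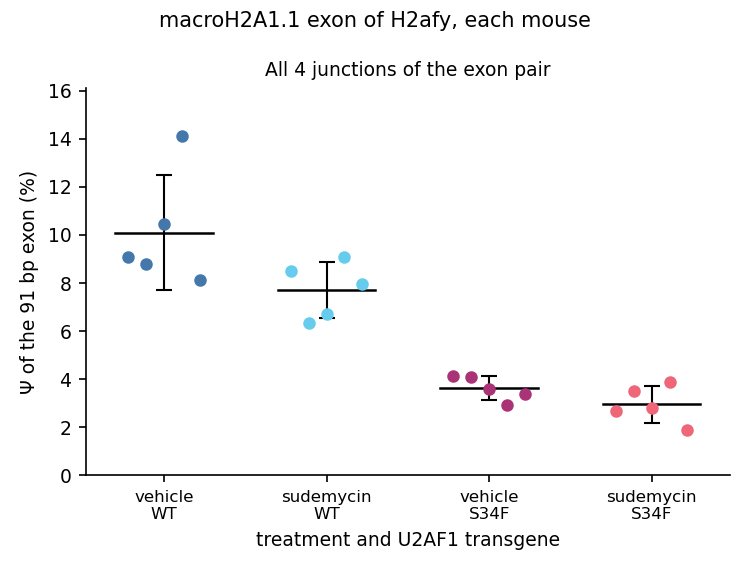
Ψ of the H2afy 91-bp exon in percent (vertical axis, from 0) in each of the 20 mice, by treatment and U2AF1 transgene. Points are mice and bars are the group mean with its SD (n = 5), and all 10 U2AF1(S34F) mice, at 4.13% or lower, lie below all 10 U2AF1(WT) mice, at 6.35% or higher.

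The pair can also be read from its upstream side, the junctions from exon 5, or from its downstream side, the junctions to exon 7. From the upstream side alone Ψ was 7.14, 7.63, 9.17, 10.9 and 6.89% in vehicle-treated and 5.82, 4.44, 6.62, 6.21 and 4.24% in drug-treated U2AF1(WT) mice. It was 2.90, 2.70, 2.42, 2.06 and 1.93% in vehicle-treated and 1.72, 1.85, 1.1, 1.75 and 1.01% in drug-treated U2AF1(S34F) mice. On this side the 4 groups did not overlap, and the drug groups lay below their vehicle groups in both genotypes. The drug's difference was -2.89 points in U2AF1(WT) marrow and -0.91 points in U2AF1(S34F) marrow, each with an exact permutation p of 0.00794, while edgeR's adjusted p over all events was 0.213 and 0.0917, the latter with a change under the 1 point asked for. The genotype's difference was -5.95 points under vehicle (edgeR adjusted p = 7.71e-15) and -3.98 points under the drug (1.64e-15).

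From the downstream side the drug groups overlapped their vehicle groups. The mean Ψ was 11.7% and 9.47% in U2AF1(WT) marrow without and with the drug (exact permutation p = 0.214), and 4.86% and 4.38% in U2AF1(S34F) marrow (exact permutation p = 0.452). The genotypes stayed apart on this side, with an exact permutation p of 0.00794 under vehicle and under the drug. Reads leaving the 91-bp exon per read entering it numbered 1.52, 2.30, 2.04 and 3.12 on average in U2AF1(WT) marrow without and with the drug and in U2AF1(S34F) marrow without and with it. For the 100-bp exon the ratio was 1.05, 1.18, 0.974 and 1.0. The difference of the 91-bp ratio between drug and vehicle had an exact permutation p, adjusted over the 5 comparisons, of 0.0397 in U2AF1(S34F) marrow and 0.190 in U2AF1(WT) marrow.

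**Figure D2:**
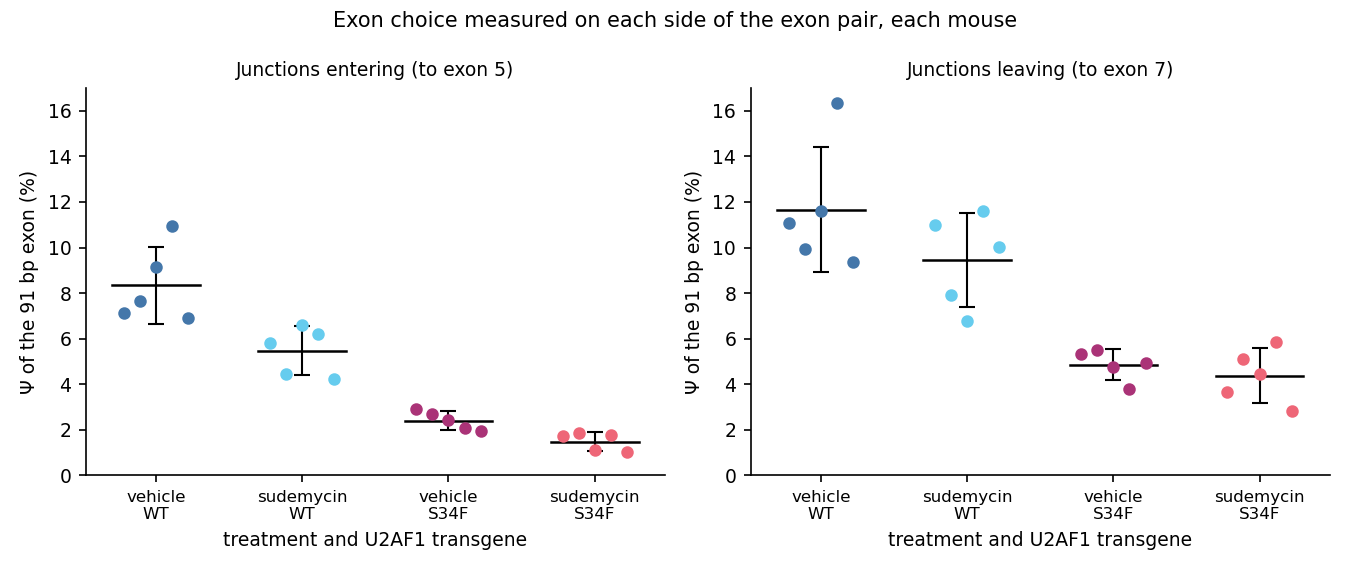
Ψ of the 91-bp exon in percent from the junctions to exon 5 only and from the junctions to exon 7 only, in each mouse, with the group mean and SD (n = 5). On the exon 5 side the drug groups (means 5.47 and 1.49%) do not overlap their vehicle groups (8.35 and 2.40%), and on the exon 7 side they do.

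A share can fall because one exon loses reads or because the other gains them, so each exon was set against the junctions that flank the pair, exon 4 to exon 5 and exon 7 to exon 8. The 91-bp exon had 8.38, 9.42, 9.17, 8.59 and 7.48% of the neighbouring reads in vehicle-treated and 7.79, 4.34, 6.81, 7.55 and 5.11% in drug-treated U2AF1(WT) mice. It had 5.03, 4.70, 4.43, 3.86 and 4.44% in vehicle-treated and 3.27, 4.36, 3.57, 4.32 and 2.59% in drug-treated U2AF1(S34F) mice. The vehicle groups did not overlap, while the groups of each drug comparison did. Relative to vehicle-treated U2AF1(WT) mice, the mean was 0.522 times as high in vehicle-treated U2AF1(S34F) mice (exact permutation p adjusted over the 5 comparisons 0.0198) and 0.735 times as high in drug-treated U2AF1(WT) mice (exact permutation, adjusted p = 0.0298). Between genotypes under the drug it was 0.573 times as high (exact permutation, adjusted p = 0.0265). The drug's ratio in U2AF1(S34F) marrow was 0.807 (exact permutation p = 0.0476), and this p was 0.0873 to 0.127 when any 1 of 7 of the 10 mice was left out and 0.405 from the exon 7 side alone. In U2AF1(WT) marrow the p was 0.0873 from the exon 7 side alone.

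The 100-bp exon gained reads in mutant marrow. It had 83.9, 97.9, 78.6, 52.4 and 84.7% of the neighbouring reads in vehicle-treated and 83.7, 64.1, 94.9, 75.6 and 59.3% in drug-treated U2AF1(WT) mice. It had 117, 110, 119, 127 and 127% in vehicle-treated and 118, 120, 123, 106 and 133% in drug-treated U2AF1(S34F) mice. All U2AF1(S34F) mice were above 100% and all U2AF1(WT) mice below it. The mean was 1.51 times as high in mutant marrow under vehicle and 1.59 times as high under the drug (exact permutation, adjusted p = 0.0132 for both). The drug's ratio was 0.950 in U2AF1(WT) and 1.0 in U2AF1(S34F) marrow (exact permutation, adjusted p = 0.873 and 0.976). Both exons and the reads that skip them together made up 89.3% of the neighbouring reads in vehicle-treated U2AF1(WT) mice, against 125% in their U2AF1(S34F) counterparts (exact permutation, adjusted p = 0.0132). The sum of the pair thus was not constant between genotypes, and read coverage near each junction was not tested as a part of it.

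**Figure D3:**
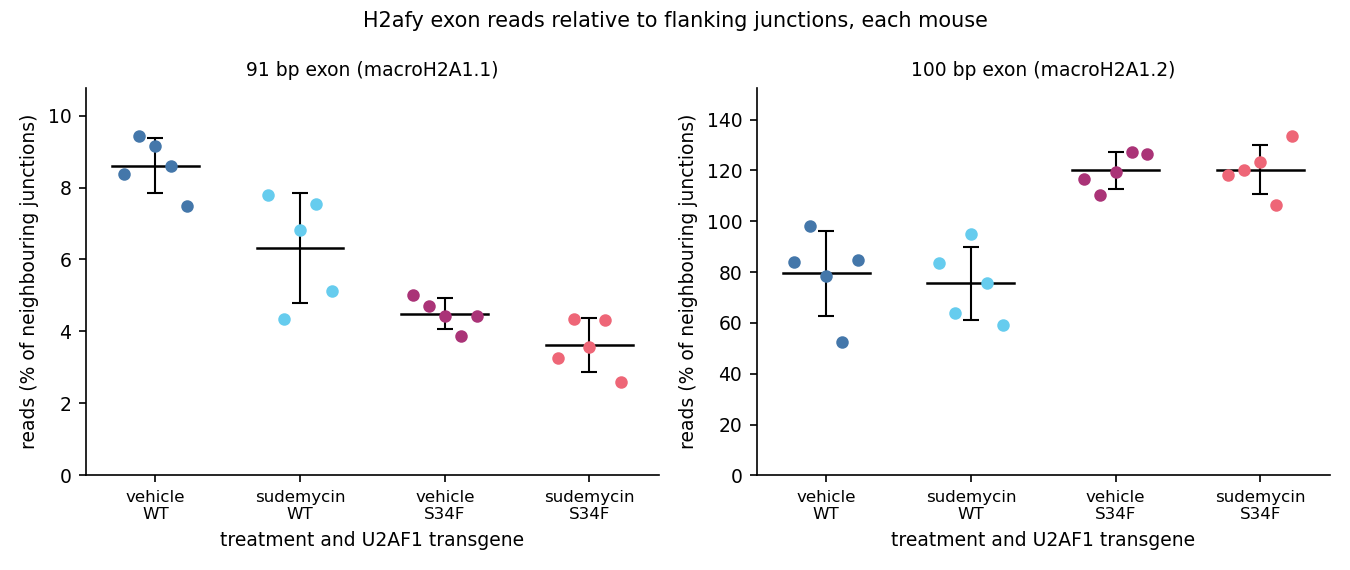
Junction reads of the 91-bp exon (left) and of the 100-bp exon (right) as a percentage of the reads on the flanking junctions of H2afy, in each mouse, with the group mean and SD (n = 5). The 91-bp exon means are 8.61, 6.32, 4.49 and 3.62% and the 100-bp exon means are 79.5, 75.5, 120 and 120%, in the order vehicle and sudemycin U2AF1(WT), vehicle and sudemycin U2AF1(S34F).

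The junctions were also tested 1 by 1, as usage against the other junctions of the gene and as level. These tests share their reads with Ψ and are no separate evidence. Of 18 H2afy junctions tested between genotypes under vehicle, 2 changed in usage (edgeR, FDR under 10%), where 1.71% of all junctions did, and they were the junctions of the 91-bp exon. The junction from exon 5 had a usage change of -0.98 and the junction to exon 7 one of -0.69 on the log2 scale (edgeR adjusted p = 0.000247 and 0.00554). As levels, reads on these junctions fell by 1.23 and 0.81 on the log2 scale, and those on the 100-bp exon's junctions rose by 0.59 and 0.53 (edgeR adjusted p = 0.000203, 0.00256, 0.0150 and 0.00557). With the junction from the upstream first exon to exon 2, which rose by 1.25 (edgeR adjusted p = 0.0772), 3 H2afy junctions rose in level and 2 fell, where 23.3% of all junctions changed in level. Under the drug 4 of 14 junctions changed in usage, where 2.27% of all did. They were both junctions of the 91-bp exon, lower in mutant marrow (edgeR adjusted p = 0.000297 and 0.0120), the junction from exon 5 to the 100-bp exon, higher (0.0596), and the junction from the main first exon to exon 2, lower (0.0176). As levels, 3 rose and 4 fell, where 23.6% of all did. The count of usage calls depended on single mice and was between 1, without drug-treated U2AF1(S34F) replicate 12, and 6, without drug-treated U2AF1(WT) replicate 9.

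Between the groups that differ in both transgene and drug, 2 of 16 H2afy junctions changed in usage, again those of the 91-bp exon (edgeR adjusted p = 5.47e-10 and 0.000131), where 2.17% of all junctions did. As levels, 3 rose and 4 fell, where 27.7% of all did. For the drug alone none of 16 and none of 18 tested H2afy junctions changed in usage by edgeR or by limma's diffSplice, with 1 and 2 at an unadjusted edgeR p under 0.05, where 0.0552% and 0.0941% of all junctions did in U2AF1(WT) and U2AF1(S34F) marrow. As levels none of these H2afy junctions was called for the drug by edgeR, where 0.231% and 1.73% of all were. None of the 4 or 5 H2afy2 junctions tested in each comparison changed in usage, and 0 had an unadjusted edgeR p under 0.05.

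The base before the AG was also read in all tested pairs of mutually exclusive exons, H2afy's among them. Among the 36370 cassette exons tested between genotypes under vehicle, this base was C in 58.4%, T in 34.6%, A in 6.62% and G in 0.415%. Of the 212 pairs tested, 87 had T in one exon only, as H2afy has, and the T exon was lower in U2AF1(S34F) marrow in 58 and higher in 29, with a median change of -2.67 points. Of these 87, 13 were called, where 7.55% of all 212 pairs were, and 12 of the 13 had the T exon lower, H2afy among them. Under the drug the T exon was lower in 62 of 86 pairs. Of these 86, 12 were called, where 9.62% of all pairs tested were, and 10 of the 12 had the T exon lower. For the drug against vehicle it was lower in 42 of 86 pairs in U2AF1(WT) marrow and in 38 of 85 in U2AF1(S34F) marrow. These are counts without a test, and pairs in the same gene share reads. Any part of this base in the H2afy change was not tested.

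Skipping of both H2afy exons was rare. It made up 1.34, 0.953, 0.874, 4.12 and 1.06% of the molecules that skipped the pair or held the 100-bp exon in vehicle-treated U2AF1(WT) mice, and 0.578, 0.267, 0.603, 0.0597 and 0.886% of them in the mutant mice on vehicle. All but 1 of the 5 U2AF1(WT) mice lay above all mutant mice, and replicate 4 stood far above the rest of its group. The 100-bp exon was higher against skipping by 1.19 points in mutant marrow under vehicle (edgeR adjusted p = 0.0729), by 0.72 points under the drug (0.0870, below the 1 point asked for) and by 1.29 points between the groups that differ in both (8.12e-05). Both calls rested on replicate 4 of the vehicle-treated U2AF1(WT) mice: without it the change was 0.58 points under vehicle (edgeR adjusted p = 0.206) and 0.67 points in the last comparison (0.0344, below the 1 point asked for). By limma on Ψ neither was called (adjusted p = 0.707 and 0.641), and the exact permutation p, not adjusted, was 0.0159 and 0.00794. Reads that joined the 91-bp exon to the 100-bp exon directly, so that both were in one molecule, numbered 55 in all 20 mice together.

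Exon 5 opens with tandem acceptors spaced by 3 bases, printed with the AG of the upstream and the downstream site in capitals.
H2afy exon 5 tandem sites, chr13:56197590-56197615: aactcttcggtttgtacaAGaAGaag
The downstream site took 64.0% ± 1.08 of the reads of the pair in vehicle-treated U2AF1(WT) mice, 67.4% ± 2.15 with the drug, 67.1% ± 1.31 in vehicle-treated U2AF1(S34F) mice and 67.4% ± 1.05 with the drug (SD, n = 5). It differed by 3.42 points between the groups that differ in both (edgeR adjusted p = 0.0672, exact permutation p = 0.00794). This call was lost without any 1 of 7 of the 10 mice (vehicle-treated replicates 2, 3 and 5 and drug-treated replicates 2, 6, 10 and 12), at changes of 3.11 to 3.51 points and edgeR adjusted p of 0.122 to 0.218, and in 1 model of all mice (0.113). The single steps were 3.34 points for the drug in U2AF1(WT) marrow (edgeR adjusted p = 0.343) and 3.09 points for the genotype under vehicle (0.187). Neither was called by edgeR over all events, and each had an exact permutation p of 0.0159, not adjusted. In mutant marrow the drug's difference was 0.32 points (edgeR adjusted p = 0.910, exact permutation p = 0.643).

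A short last exon that follows exon 5 ends the transcript before the macro domain exons. It took 1.94, 1.91, 3.62, 2.09 and 1.89% of the reads leaving exon 5 in vehicle-treated U2AF1(WT) mice, and 1.39, 1.16, 1.29, 0.875 and 1.05% of them in the mutant mice on vehicle. No mutant mouse reached the U2AF1(WT) range. The group means were 2.29 and 1.15% under vehicle and 2.58 and 0.887% under the drug (exact permutation p adjusted over the 5 comparisons 0.0132 for both), and for the drug this p was 0.635 in U2AF1(WT) and 0.0992 in U2AF1(S34F) marrow, with overlap in both. The share is taken over all reads leaving exon 5, among them those to the 100-bp exon, which were higher in mutant marrow. Scaled instead to all junction reads of each mouse, the short last exon in mutant marrow was at 0.676 times the U2AF1(WT) level under vehicle (exact permutation, adjusted p = 0.0893) and at 0.562 times under the drug (0.0397), and on this scale the genotypes overlapped. As junction usage the same junction was not called between genotypes (edgeR adjusted p = 0.630 under vehicle and 0.188 under the drug).

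The first exons also differed by genotype in some of the measures. The upstream first exon took 1.28, 2.86, 2.06, 0.170 and 0.693% of first-exon reads in vehicle-treated U2AF1(WT) mice, against 3.40, 4.70, 3.03, 3.61 and 4.87% of them in the mutant mice on vehicle, without overlap. The means were 1.41 and 3.92% (exact permutation, adjusted p = 0.0397). Under the drug they were 2.08 and 3.92%, with overlap (adjusted p = 0.0661). Scaled to all junction reads, the upstream first exon was at 2.42 times the U2AF1(WT) level in mutant marrow under vehicle, with overlap (exact permutation, adjusted p = 0.0992). As junction usage its junction was not called between genotypes (edgeR adjusted p = 0.399 under vehicle and 0.888 under the drug). This junction held only 70 reads in the 5 vehicle-treated U2AF1(WT) mice together. All first exons together had 47.3, 55.1, 39.0 and 38.2% as many reads as the junction from exon 2 to exon 3 in U2AF1(WT) marrow without and with the drug and in U2AF1(S34F) marrow without and with it, with an exact permutation p between genotypes, adjusted over the 5 comparisons, of 0.0198 under the drug, where the groups did not overlap, and 0.0529 under vehicle, where they did.

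**Figure D4:**
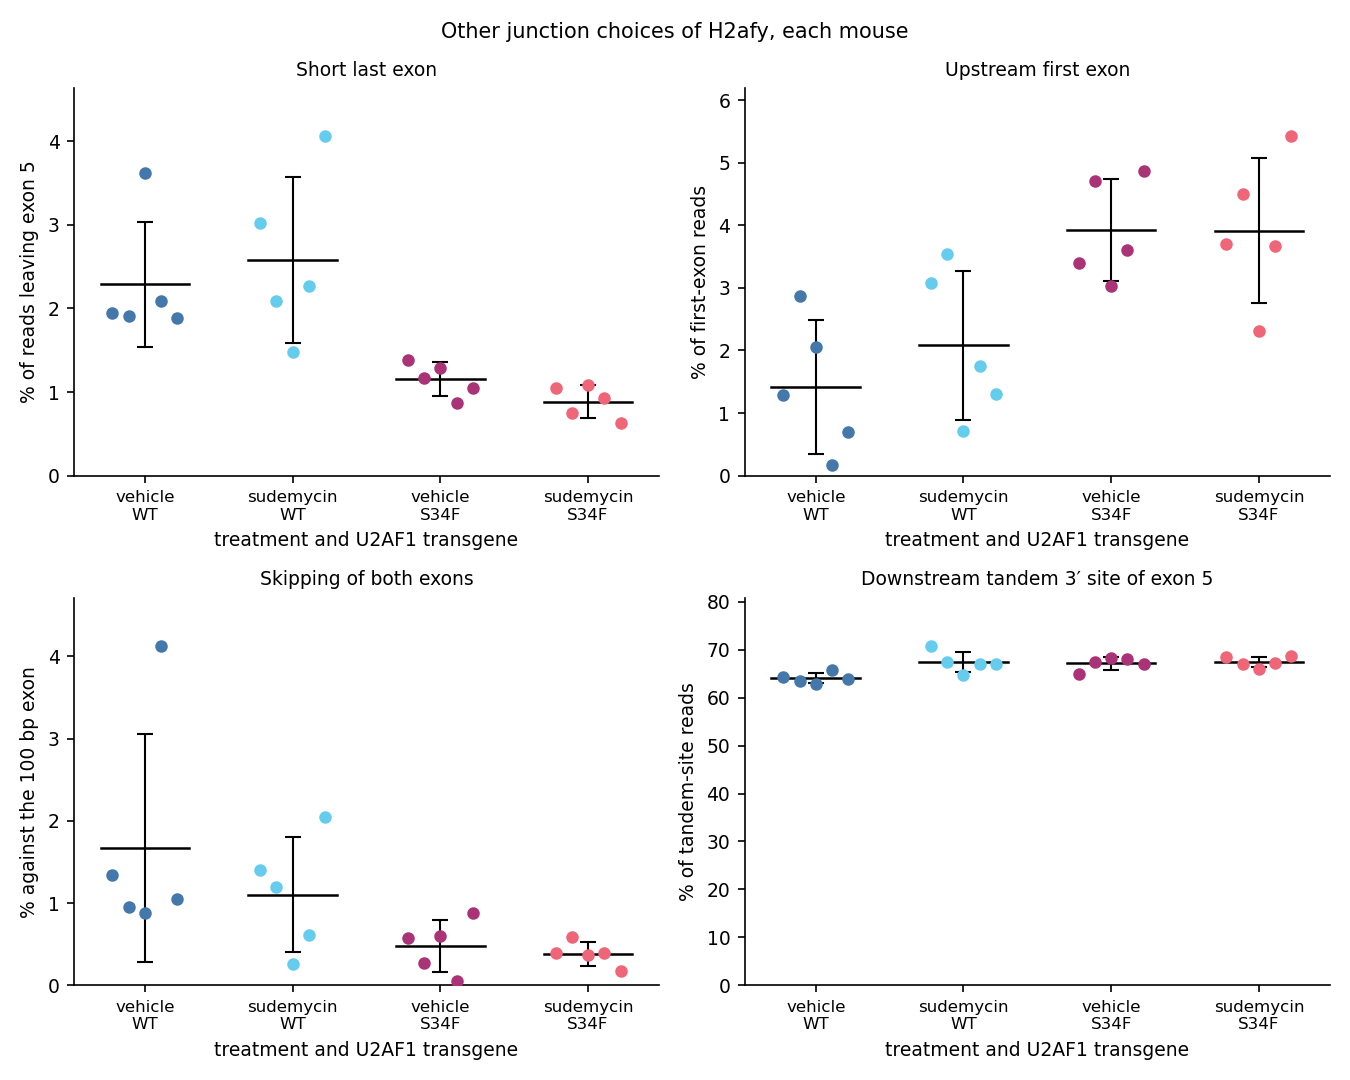
Other choices along H2afy in each mouse, each in percent with the group mean and SD (n = 5): skipping of both exons, the downstream tandem acceptor, the short last exon and the upstream first exon. Replicate 4 of the vehicle-treated U2AF1(WT) mice, at 4.12%, is the highest point for skipping, and the short last exon is lower in every mutant mouse than in every U2AF1(WT) mouse of the same treatment.

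The remaining junctions carried few reads. In H2afy, 14 annotated junctions held 99.5% of 375880 reads, 14 more joined annotated splice sites in an unannotated pairing (742 reads in all), and 49 used 1 annotated and 1 unannotated site (1318 reads), of which 30 were seen in 1 mouse. One of these had 77 reads in a single drug-treated U2AF1(S34F) mouse and 0 in the other 19. In H2afy2, 8 of 10 junctions were annotated and held 1983 of 1987 reads, with 62 to 142 reads per mouse.

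Expression of H2afy as a gene did not pass the test in any comparison, where 39.5% of 14817 genes tested were called between genotypes under vehicle, 36.8% under the drug, 3.07% and 10.8% for the drug in U2AF1(WT) and U2AF1(S34F) marrow, and 50.2% between the groups that differ in both. H2afy was at 310, 376, 267, 296 and 288 CPM in vehicle-treated and 272, 300, 301, 279 and 268 CPM in drug-treated U2AF1(WT) mice. It was at 325, 328, 344, 307 and 343 CPM in vehicle-treated and 321, 303, 298, 361 and 317 CPM in drug-treated U2AF1(S34F) mice. The vehicle groups overlapped, and under the drug the groups met between 298 and 301 CPM. The log2 change of expression was 0.09 between genotypes under vehicle (SE 0.093, 95% confidence interval -0.13 to 0.30, edgeR adjusted p = 0.503) and 0.17 under the drug (SE 0.073, 95% confidence interval 0.0014 to 0.34, edgeR adjusted p = 0.102). For the drug it was -0.14 in U2AF1(WT) marrow (95% confidence interval -0.37 to 0.10, edgeR adjusted p = 0.616) and -0.04 in U2AF1(S34F) marrow (95% confidence interval -0.20 to 0.11, edgeR adjusted p = 0.736). The drug's effect differed between the genotypes by 0.07 on the log2 scale for H2afy and by -0.14 for H2afy2 (edgeR adjusted p = 0.939 and 0.959), where 0.0130% of 15392 genes were called. The call for H2afy changed with single mice: the genotype passed under vehicle without vehicle-treated U2AF1(WT) replicate 2 (log2 change 0.18, edgeR adjusted p = 0.0659) and under the drug without drug-treated U2AF1(WT) replicate 9 (0.20, 0.0700). In whole marrow, fewer cells of a type and less RNA per cell cannot be told apart.

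H2afy2 was far lower. It had 42 to 131 counts per mouse, or 2.24, 1.51, 1.38, 1.18 and 1.56 CPM in vehicle-treated U2AF1(WT) mice, against 1.56, 1.95, 1.85, 2.32 and 2.07 CPM in their U2AF1(S34F) counterparts. With the drug it was 1.24, 0.880, 2.00, 1.61 and 1.74 CPM in U2AF1(WT) and 1.67, 1.22, 1.69, 1.66 and 2.10 CPM in U2AF1(S34F) mice. The 4 ranges overlapped. The log2 change was 0.29 between genotypes under vehicle (SE 0.20, 95% confidence interval -0.18 to 0.75, edgeR adjusted p = 0.300), and no comparison passed. At this depth a change within that interval could not be told from none. Per kilobase of exon, H2afy lay above 92.4% and H2afy2 above 25.8% of the 15392 genes tested over all mice, and H2afy was 59.9 times as high as H2afy2.

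**Figure D5:**
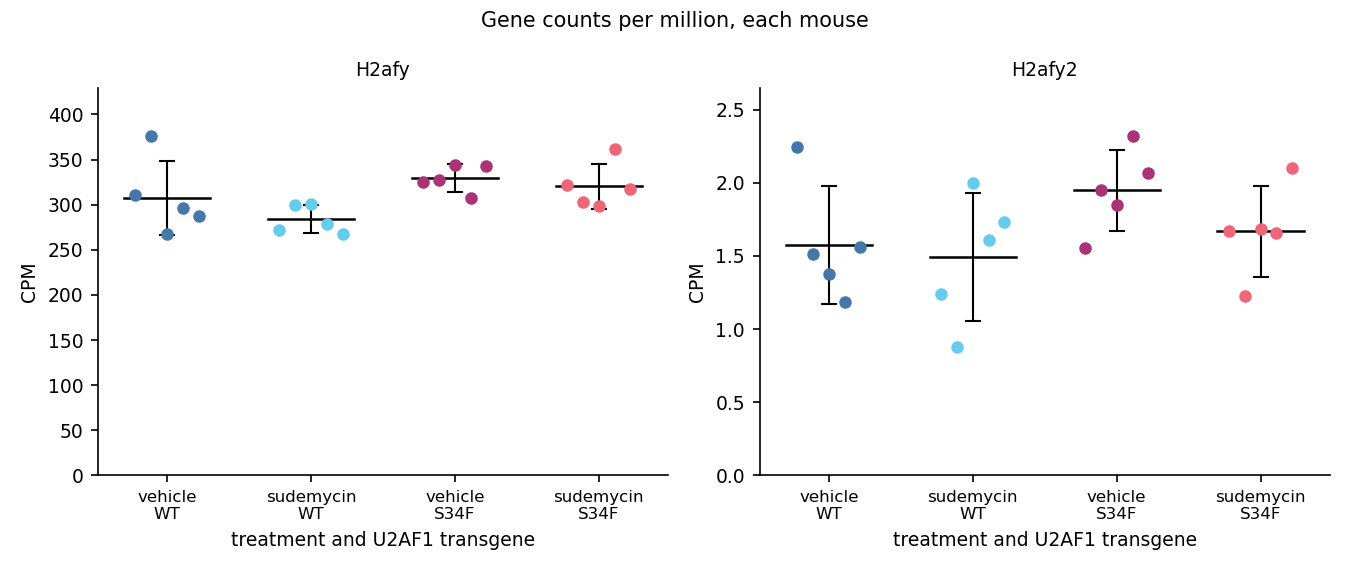
Expression of H2afy (left) and H2afy2 (right) in CPM in each mouse, with the group mean and SD (n = 5), on separate axes that start at 0. Group means are 307, 284, 330 and 320 CPM for H2afy and 1.58, 1.49, 1.95 and 1.67 CPM for H2afy2. The groups of each comparison made overlap.

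The genes that act around macroH2A are given list by list beside the share of all genes called, which was 39.5% between genotypes under vehicle and 3.07% and 10.8% for the drug in U2AF1(WT) and U2AF1(S34F) marrow. Of the 4 other H2A variant genes, 1 was called between genotypes under vehicle: H2afz, which encodes H2A.Z, rose by 0.39 on the log2 scale (edgeR adjusted p = 0.0125), while H2afx, H2afv and H2afj did not pass (log2 change -0.07, 0.07 and 0.08). Among 10 ADP-ribose enzymes and macro domain proteins, 5 were higher and 0 lower, with a median log2 change of 0.17 against 0.00 over all genes. They were Parp2, a DNA-damage ADP-ribose polymerase (0.35), Parp9, a macro domain PARP (0.30), Macrod2, an ADP-ribose hydrolase at under 1 CPM in both groups (0.78), AI314976, the entry for Oard1, an ADP-ribose hydrolase (0.22), and Chd1l, a macro domain chromatin remodeller (0.29), with edgeR adjusted p of 0.0172, 0.0480, 0.0261, 0.0471 and 0.00608. Parp9 was no longer called without vehicle-treated U2AF1(S34F) replicate 5 (log2 change 0.21, edgeR adjusted p = 0.120), nor AI314976 without vehicle-treated U2AF1(WT) replicate 3 (0.19, 0.116). With all mice kept, Parp9 lost its call in 2 of 5 other settings of the test and Macrod2 in 1 of 5. The background share for 1 direction was 19.7% higher and 19.8% lower.

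Of 6 chromatin factors that handle macroH2A, 4 were higher and 1 lower between genotypes under vehicle. Hells, a SNF2-family remodeller, rose by 0.52, Ssrp1, a subunit of the FACT histone chaperone, by 0.33, Cul3, the scaffold of the ubiquitin ligase that acts on macroH2A with the adaptor Spop, by 0.32, and Atrx, an X-linked remodeller, by 0.24, while Spop fell by 0.33 on the log2 scale (edgeR adjusted p = 0.00335, 0.00753, 0.00916, 0.0494 and 0.00750). Atrx lost its call without vehicle-treated U2AF1(WT) replicate 1 (log2 change 0.22, edgeR adjusted p = 0.118) and without vehicle-treated U2AF1(S34F) replicates 1 (0.23, 0.103) and 7 (0.19, 0.110). With all mice kept, Atrx and Cul3 each lost the call in 1 of 5 other settings of the test. Under the drug 3 were higher and 1 lower, where 17.2% and 19.6% of all genes were, and between the groups that differ in both transgene and drug 4 and 1, where 25.1% were called in each direction. For the drug none of the 6 was called in either genotype, and 0 had an unadjusted edgeR p under 0.05.

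The RNA-binding proteins listed here as regulators of the H2afy exon choice, whose action on it was not tested, did not move as one. Of 9, 7 had enough reads to test, since Rbfox1 and Rbfox3 did not. Between genotypes under vehicle Mbnl3 rose by 0.44 and Mbnl2 fell by 0.23 on the log2 scale (edgeR adjusted p = 0.00210 and 0.0348), and Qk, which encodes Quaking, a known promoter of macroH2A1.1 splicing, had a log2 change of -0.08 (edgeR adjusted p = 0.405). Thus 1 of the 7 was higher and 1 lower, where 19.7% and 19.8% of all genes were. Under the drug 3 were higher and 1 lower in mutant marrow: Mbnl3 (0.39), Mbnl1 (0.22), Rbfox2 (0.71) and Ddx17, a helicase (-0.23). Of all genes tested, 17.2% were higher and 19.6% lower in that comparison. The drug raised Rbfox2 in U2AF1(S34F) marrow by 0.69 (edgeR adjusted p = 0.0256), from a mean of 2.06 to 3.34 CPM, and no other regulator in either genotype was called. In that comparison the drug raised 4.94% and lowered 5.85% of all genes tested. The drug's Rbfox2 call there was lost in 1 of 4 other settings of the test. Between the groups that differ in both, 3 were higher and 2 lower, the helicases Ddx5 (-0.36) and Ddx17 (-0.21) being the lower ones, where 25.1% of all genes were called in each direction. The Ddx17 call was lost in 8 of 10 fits that left out 1 mouse (edgeR adjusted p up to 0.183).

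For the remaining comparisons the counts of the other lists were as follows. Over all genes the shares were 17.2% higher and 19.6% lower between genotypes under the drug, and 25.1% in each direction between the groups that differ in both. H2A variants were called 1 higher under the drug and 2 higher (H2afz and H2afj) between the groups that differ in both, and none for drug against vehicle, where 3.07% and 10.8% of all genes were called. H2afj was no longer called without vehicle-treated U2AF1(WT) replicate 3 (log2 change 0.16, edgeR adjusted p = 0.103). Of the ADP-ribose list, 2 were higher (Parp2 and Macrod2) and 1 lower (Macrod1) under the drug, and 4 higher and 2 lower between the groups that differ in both. Among the latter, AI314976 lost its call in 7 of 10 fits that left out 1 mouse (edgeR adjusted p up to 0.206), and Parp14 in 1 model of all mice (0.142). For the drug 0 were called in U2AF1(WT) marrow and 1, Parp14, in U2AF1(S34F) marrow, lower by 0.43 on the log2 scale (edgeR adjusted p = 0.0940). Its call was lost in 7 of the 10 fits that left out 1 mouse, with an adjusted p of up to 0.185. The calls of Macrod1, Macrod2, Mbnl1 and Spop under the drug were likewise lost without single mice.

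Markers of marrow cell types were read beside these results. Between genotypes under vehicle, where 19.7% of all genes were higher and 19.8% lower, 5 of 10 neutrophil markers were higher and 0 lower, 0 of 10 B-lineage and 0 of 8 erythroid markers were called, 1 of 8 monocyte and macrophage markers was higher and 3 lower, 1 of 6 megakaryocyte markers higher and 2 lower, 2 of 7 T and NK cell markers higher and 1 lower, and 1 of 6 stromal markers higher and 1 lower. Between genotypes under the drug, where these shares were 17.2% and 19.6%, it was 3 of 10 neutrophil markers higher, and lower were 5 of 10 B-lineage, 3 of 8 erythroid, 2 of 6 megakaryocyte, 3 of 7 T and NK cell and 1 of 6 stromal markers, while 4 monocyte and macrophage markers were higher and 1 lower. Between the groups that differ in both, where the share was 25.1% in each direction, all 10 B-lineage markers were lower, with a median log2 change of -1.68. Of the others, 4 of 6 megakaryocyte markers were lower and 1 higher, 5 of 7 T and NK cell markers lower and 1 higher, 3 of 8 monocyte and macrophage markers lower and 2 higher, 2 of 8 erythroid markers lower, 1 of 6 stromal markers lower and 1 higher, and 5 of 10 neutrophil markers higher. For the drug in U2AF1(WT) marrow, where 1.18% of all genes were higher and 1.89% lower, 2 B-lineage markers and 1 monocyte and macrophage marker were lower. For the drug in U2AF1(S34F) marrow, where 4.94% were higher and 5.85% lower, 3 B-lineage, 2 megakaryocyte, 2 T and NK cell markers and 1 erythroid marker were lower. No other marker was called by edgeR for the drug. Between genotypes under vehicle, where no B-lineage marker was called, their median log2 change was -0.88, against 0.00 over all genes. Under the drug it was -1.03 between genotypes, against -0.03 over all genes. The summed B-lineage level ranged from 45.9 to 145 CPM in vehicle-treated U2AF1(WT) mice and from 15.1 to 181 with U2AF1(S34F), and with the drug from 22.8 to 181 and from 33.0 to 55.1. Every neutrophil marker had reads in all 4 groups, and the part of cell composition in the Ψ and expression results was not tested.

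The events whose Ψ followed that of the H2afy pair most closely over the 20 mice, among 46478 events, were cassette exons. They were in Itch, an E3 ubiquitin ligase (Pearson r = 0.95), Mtmr3, a phosphoinositide phosphatase (-0.94), Cd97, an adhesion receptor (-0.94), Klra2 (0.94), and H3f3a, which encodes histone H3.3 (0.92). Mean inclusion of the Itch exon was 27.0% in vehicle-treated and 18.5% in drug-treated U2AF1(WT) mice, against 11.2% and 9.28% in mutant marrow. Mean inclusion of the Mtmr3 exon went the other way, at 47.7, 50.9, 62.5 and 64.1% in the same order, and the H3f3a exon was under 1% in all groups. These correlations pool mice of groups that differ, share the libraries of each mouse, and carry no test.

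As levels of expression, the genes most like H2afy among 12127 genes over the 20 mice were Cnpy2 (r = 0.90), Helb, a DNA helicase (0.86), Acads and Ivd, acyl-CoA dehydrogenases (0.86 and 0.85), and 3200002M19Rik (0.86). Within groups, after each group mean was taken off, r for Cnpy2 was 0.86. Those most like H2afy2 were Ctcf, the insulator protein (0.72), Tsga14 (0.72), Glt8d1 (0.70), D3Ertd751e (0.70) and Mynn (0.69), from counts as low as 42 per mouse for H2afy2.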

How the data were processed

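The authors sequenced stranded, ribosome-depleted total RNA of 20 bone marrows, aligned it to mm9 with TopHat2 2.0.8, and deposited raw counts of reads per gene and counts of reads per splice junction, with replicates kept apart. Nothing was normalized before deposit. Columns were matched to mice by their titles, and no column was left out.

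Genes were tested with edgeR 4.0.16 (R 4.3.3), after its expression filter and TMM scaling, in a quasi-likelihood fit of the 10 mice compared, or of all 20 for the interaction of drug and genotype, with Benjamini-Hochberg adjustment over all genes tested. CPM used the same scaling. Gene names, exons and transcripts came from GENCODE vM1. Of the 181355 junctions with reads that the table marks as annotated, 99.6% are introns of that annotation. Splicing events (cassette exons, mutually exclusive exons and alternative 5′ and 3′ splice sites) were built from junctions whose 2 sites are annotated. An event was tested if it averaged 10 or more reads a mouse, with edgeR's quasi-likelihood fit of the 2 isoforms' reads, with 1 coefficient for each mouse and the negative binomial dispersion at 0, so that spread between mice enters through the quasi-dispersion. An event was called at an FDR under 10% and a change in Ψ of over 1 percentage point, and a gene or junction at an FDR under 10%. Ψ counts reads per junction of each isoform. Junction usage was tested with edgeR's diffSpliceDGE. Single measures were compared by exact two-sided permutation over mice, adjusted over the 5 comparisons of 2 groups where the text says so, and their p-values are given without a call. Intervals for Ψ came from limma 3.58.1. Sequences were read with pysam 0.24.0 from the mm9 genome.

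The genes, gene lists and the form of the event test were chosen with earlier results of these data known, and the H2afy pair was already known to differ in these mice, so its direction here is no independent evidence. The genes named are H2afy and H2afy2 with their junctions and events, the members of the lists that passed, and the 5 genes and 5 events most correlated with them, among genes with a mean of at least 1 CPM and events with at least 20 reads in every mouse. The lists were H2A variants, ADP-ribose enzymes and macro domain proteins, chromatin factors that handle macroH2A, regulators of the exon choice, and markers of B-lineage, neutrophil, monocyte and macrophage, erythroid, megakaryocyte, T and NK, and stromal cells, and sex-linked transcripts, of which Xist was lower and 4 Y-linked genes were higher in U2AF1(S34F) mice. Alternatives were DESeq2 1.42.0, other scalings, filters and read minimums, limma, 1 model of all mice, the replicate number as a block and leaving out each mouse. The tests were tried on simulated counts first. Protein sequences were not used here.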

Additional observations from a re-analysis of the deposited data

Results flagged for a closer look

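In a group of 5 mice, a mouse was singled out when its gap to the nearest other mouse was over 0.71 of the group's whole range. Of 76 groups tested 8 were singled out. Chance alone singles out about 1 in 20 of separate, normally distributed groups. Many of the 76 share reads and mice and some hold counts of 0, so that rate cannot judge the 8. Among the vehicle-treated U2AF1(WT) mice, replicate 4 carried 4 of the 8. Its reads on the first-exon junctions were 63.8% of those between exon 2 and exon 3, where the others lay between 41.8 and 44.5%. Its share of skipping of both exons was 4.12%, where the others lay between 0.874 and 1.34%. It had 2.12 reads leaving the 91-bp exon for each read entering it, where the others had 1.26 to 1.49. It had 0 reads from a donor 4 bases inside the 91-bp exon, where the others had 14 to 19. In the same group replicate 3 used the short last exon in 3.62% of the reads leaving exon 5, where the others lay between 1.89 and 2.09%.

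One vehicle-treated U2AF1(S34F) mouse had first-exon reads at 29.8% of those between exon 2 and exon 3, where the others lay between 40.1 and 43.2%, and one had 2.41 reads leaving the 91-bp exon for each entering it, where the others had 1.90 to 1.99. One sudemycin-treated U2AF1(WT) mouse used the third tandem acceptor of exon 5 in 0.426% of the reads at these sites, where the others lay between 0 and 0.0513%. No mouse was singled out by Ψ of the pair from all 4 junctions or by expression of H2afy or H2afy2.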

How the results depend on the processing

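Of 363 recomputed values for H2afy and H2afy2 expression, the mutually exclusive exons and junction usage, 343 were rated the same. For expression and the exons this means that direction and side of the threshold were kept. For junction usage, where 57 of 60 were rated the same, it means only that the count of junctions stayed of similar size. With the negative binomial dispersion estimated by edgeR, the pair lost its call between genotypes under vehicle (-6.47 points, adjusted p = 0.528), under the drug (-4.75, 0.527) and between the groups that differ in both (-7.14, 0.499), and 0 events of any gene were called in any comparison. By limma on Ψ all 3 calls stayed (adjusted p = 0.0714, 0.0288 and 0.0269). Over left-out mice the pair's drug difference in U2AF1(WT) marrow ran from -2.88 to -1.39 points. H2afy expression ran from 0.043 to 0.18 between genotypes under vehicle and from 0.13 to 0.20 under the drug, where DESeq2 called it (0.17, adjusted p = 0.0736), and from -0.0079 to 0.13 for the interaction. H2afy2 ran from -0.22 to 0.067 for the drug in U2AF1(WT) marrow, from -0.020 to 0.24 between the groups that differ in both and from -0.30 to 0.0066 for the interaction. Junctions of both genes with changed usage numbered 1 to 6 under the drug over left-out mice. By limma's diffSplice they numbered 4 under vehicle and 5 between the groups that differ in both. The 100-bp exon's drug difference in reads relative to its neighbours ran from -0.19 to 0.012 (log2) in U2AF1(WT) and from -0.037 to 0.044 in U2AF1(S34F) marrow over left-out mice, and in the latter were -0.027 against exon 7 to exon 8 alone, -0.016 from the exon 5 side and -0.059 scaled to all junction reads.

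Counts over all genes moved more. Events called by limma on Ψ were 187, 24, 74, 188 and 587, in the order genotype under vehicle, drug in U2AF1(WT), drug in U2AF1(S34F), genotype under the drug and both, against 1032, 315, 622, 1043 and 2245, and in 1 model of all mice 543, 167, 619 and 1157 for the last 4. Genes called for the drug in U2AF1(WT) marrow were 453, or 191 (without vehicle-treated replicate 1) to 730 (without replicate 2) over left-out mice, 811 by DESeq2 and 1072 in 1 model, and in U2AF1(S34F) marrow 1588, or 788 in 1 model and 913 without sudemycin-treated replicate 2. For the interaction they were 2, or 10 with no filter on low counts, 116 by DESeq2 and up to 87 (without vehicle-treated U2AF1(S34F) replicate 5). Junctions with changed usage by diffSplice were 5579, 195, 8322 and 5606 against 2149, 118, 2810 and 2693, leaving aside the drug in U2AF1(WT) marrow, where annotated junctions alone gave 11 against 69 (24 against 118 in U2AF1(S34F) marrow).

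Whether the replicate numbers pair the mice cannot be told from so few shared numbers. Same-numbered mice correlated at -0.05 to 0.13 under vehicle and -0.11 to 0.21 under the drug. Of the shared numbers, 1 of 3 and 2 of 4 correlated best with their own. With the replicate block the pair changed by -5.28 points under vehicle and -5.02 under the drug (adjusted p = 7.435e-09 and 1.565e-14), with 109 and 275 events called. The other comparisons share fewer than 2 numbers. Left-out mice for skipping and for the tandem acceptors, the event's own variance and the other neighbours and sides of each exon were chosen after seeing the data. At 42 to 131 counts, depth limits H2afy2.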
